A study of Homo sapiens with 8 samples.

Results

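The genes of the proteasome were read out in RNA-seq libraries of A549 cells, a line derived from a human lung adenocarcinoma. Members were the rows of the count table whose Ensembl identifier is protein-coding in GENCODE 44 and whose symbol starts with PSMA, PSMB, PSMC, PSMD, PSME, PSMF or PSMG followed by a digit. This gave 50 of the 58302 genes in the table. PSMC3IP and PSME3IP1 meet the rule by their names alone and are not proteasome subunits. The cells were transfected with a control siRNA (siCTRL) or with an siRNA against APEX1 (siAPEX1), the gene of the DNA repair endonuclease APE1, and RNA was extracted after 72 h. There were 4 libraries per group, with no other treatment or allele in either group. The study calls them biological replicas, while the labels do not say that they came from separate cultures, so p-values measure the spread between these libraries. The comparison asks how the level of each proteasome transcript differs between the libraries labelled siAPEX1 and those labelled siCTRL, and whether the core and the regulatory particle differ alike.

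The proteasome is the protease that degrades ubiquitin-tagged proteins in the cytoplasm and the nucleus. Its core particle is a barrel in which rings of alpha subunits (PSMA) gate the entry and rings of beta subunits (PSMB) hold the proteolytic sites. The regulatory particle caps the barrel: a base with a ring of ATPases (PSMC) unfolds and feeds in the substrate, and a lid (most PSMD genes) removes its ubiquitin. Other activators (PSME), an inhibitor (PSMF1) and dedicated assembly chaperones (PSMG and a few PSMD genes) bind the core or its precursors.

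The total count on genes was 1639796 to 1949886 in the siCTRL libraries and 1348386 to 1619500 in the siAPEX1 libraries. Levels are given as counts scaled to a common library size (CPM) after correction with TMM factors, which were 1.10 to 1.14 in siCTRL and 0.873 to 0.919 in siAPEX1 libraries. A small-RNA kit was used for library preparation, and nuclear protein-coding genes other than APEX1 took 15.4% ± 0.296 (SD, n = 4) of the counts in siCTRL and 12.2% ± 0.323 in siAPEX1. In the siAPEX1 library of replicate 1 this share was 12.7%, apart from the others of its group. APEX1 itself had 47 to 64 counts in the siCTRL libraries and 19470 to 27916 in the siAPEX1 libraries, against the label of a silenced gene. Counts per gene do not separate its transcript from reads of the transfected siRNA, so directions below refer to the labels. The study reports silencing of the APE1 protein in A549 cells with a Western blot, and these counts do not measure protein. The 6 epithelial markers checked (KRT7, KRT8, KRT18, KRT19, CDH1 and EPCAM) were all detected, with 1024 to 1379 summed counts in siCTRL and 278 to 358 in siAPEX1. The 4 keratins were called lower, CDH1 was called higher and EPCAM was too low to be tested. The liver and the leukocyte markers had 0 or 1 summed count in every library. The fibroblast markers had 3 to 12 summed counts in siCTRL and 2 to 4 in siAPEX1. These summed counts are not scaled for library size, and the siAPEX1 libraries were smaller. The lower scaled levels of the 4 keratins run together with the lower proteasome levels given next, and their part in them was not tested. In bulk RNA, fewer cells that express a gene and less of its RNA per cell cannot be told apart.

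Of the 50 members, 38 had enough counts to be tested among 5368 genes. Calls were made at an adjusted p of at most 0.05 (edgeR quasi-likelihood test, Benjamini-Hochberg over all genes tested). Of the 38 members, 9 were lower in siAPEX1, 0 were higher and 29, with PSME3IP1 among them, did not pass. Among all genes tested, 15.8% were called lower and 15.9% were called higher. The 9 genes were PSMC4, PSMD8, PSMA5, PSMA1, PSMB7, PSME2, PSMB4, PSME4 and PSMA7. Over the 38 genes the median log2 fold change was -0.24, with 28 values below 0 and 10 above, against a median of -0.0035 over all genes tested. The nuclear protein-coding genes tested had a median of -0.03, with 15.9% called lower and 12.4% called higher. An unadjusted p under 0.05 was reached by 13 proteasome genes, all with a value below 0, and no alternative, DESeq2 included, called a member higher. The count of calls was 4 without the siAPEX1 library of replicate 1. It was 3 with DESeq2, the package that the study used for its differential expression.

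PSMC4 was the only tested member that also passed a log2 fold change of -1, a criterion met by 5.68% of all genes tested. In 6 of the 38 tested members (PSMC4, PSMD8, PSMA5, PSMB7, PSME1 and PSME4) every siAPEX1 library lay below every siCTRL library in CPM, as did 14.9% of all genes tested. In 0 tested members every siAPEX1 library lay above, against 14.0% of all genes tested. Transcripts of the 38 tested members together took 0.483% ± 0.0248 (SD, n = 4) of the nuclear protein-coding counts in siCTRL and 0.385% ± 0.0113 in siAPEX1, and the groups did not overlap.

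**Figure D1:**
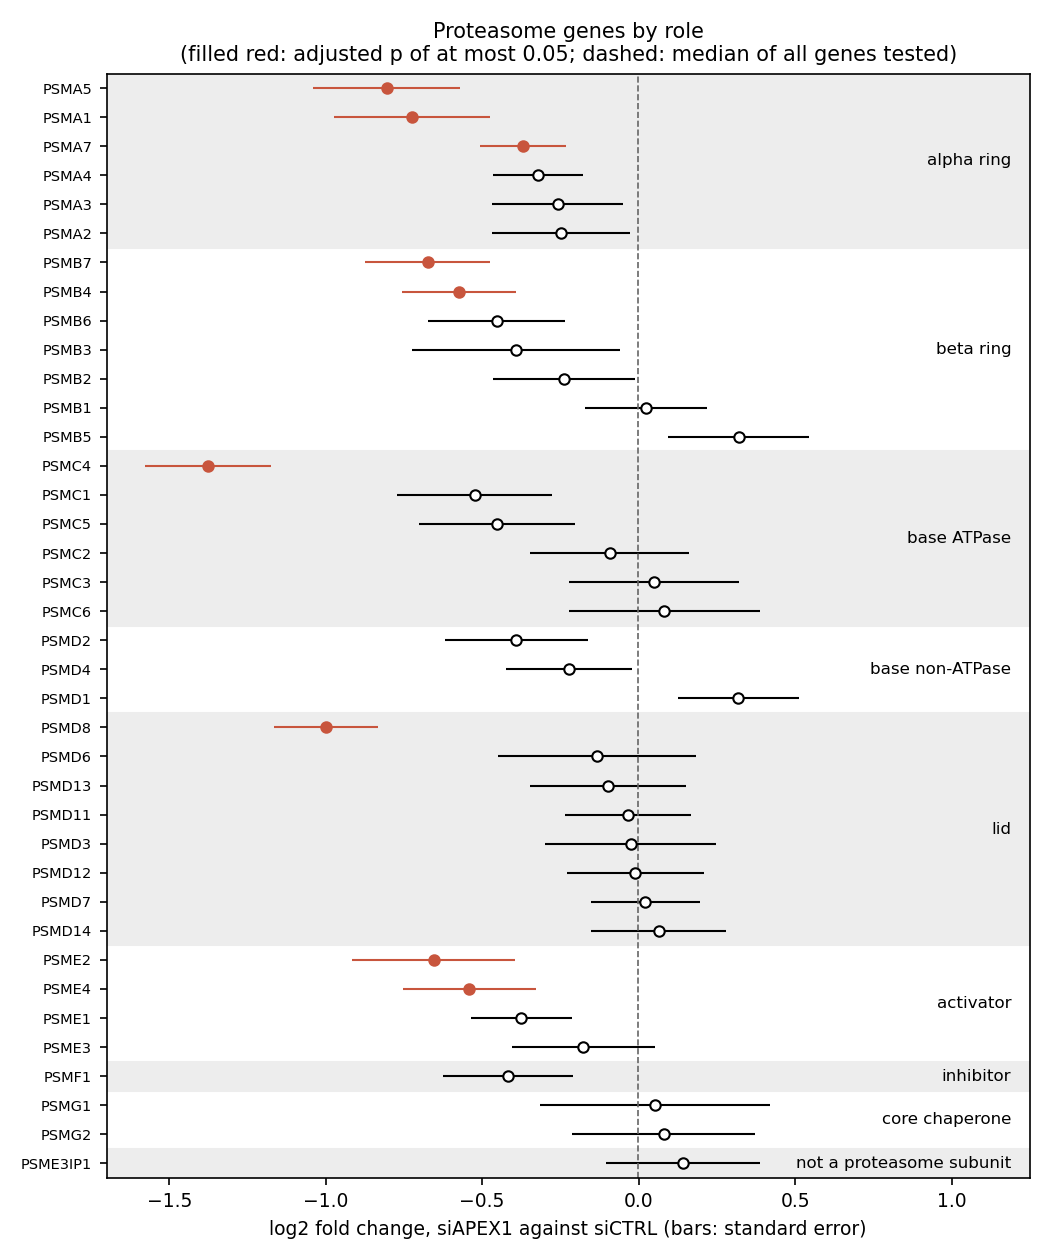
Log2 fold change (siAPEX1 against siCTRL, x axis) of each of the 38 tested genes, ordered by role, with bars of 1 standard error. Filled red points mark the 9 genes with an adjusted p of at most 0.05, all to the left of 0, and the dashed line marks the median of all genes tested.

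Among the tested members, the largest differences were those of 2 subunits of the regulatory particle, both encoded on chromosome 19. PSMC4 (ENSG00000013275, chromosome 19 from 39971165 to 39981764, plus strand) encodes an ATPase of the base. Its level was 30.2, 25.7, 32.9 and 27.7 CPM in the siCTRL libraries of replicates 1 to 4, and 6.59, 11.4, 14.4 and 11.9 CPM in the siAPEX1 libraries. No siAPEX1 library reached as much as 15 CPM, and no siCTRL library fell to that level. PSMC4 thus fell by 1.38 on the log2 scale (standard error, SE, 0.200, adjusted p = 5.35e-07), from 29.1 ± 3.13 to 11.1 ± 3.27 CPM (SD, n = 4). The counts behind these levels were 50 to 71 reads in siCTRL and 8 to 20 in siAPEX1.

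PSMD8 (ENSG00000099341, chromosome 19 from 38374563 to 38383850, plus strand) encodes a subunit of the lid. It had 56.3, 47.0, 42.6 and 32.7 CPM in siCTRL and 28.0, 19.5, 22.3 and 19.9 CPM in siAPEX1. The siCTRL libraries varied widely among themselves, and still the lowest of them stood above the highest siAPEX1 library. The log2 fold change of PSMD8 was -0.999 (SE 0.167, adjusted p = 6.55e-06), from 44.6 ± 9.82 to 22.4 ± 3.93 CPM. Its call and that of PSMC4 held under every alternative in which the gene was tested. Among the 304 nuclear protein-coding genes tested on chromosome 19, 23.4% were called lower and 7.57% higher, and their median was -0.19 on the log2 scale.

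The 250 bases before the RefSeq start of these genes (GRCh38.p14) are shown because the genes had the largest falls among the tested members. Each is given 5′ to 3′ on the strand of its gene, from chr19:39970915-39971164 (plus strand) for PSMC4 and chr19:38374321-38374570 (plus strand) for PSMD8.
PSMC4: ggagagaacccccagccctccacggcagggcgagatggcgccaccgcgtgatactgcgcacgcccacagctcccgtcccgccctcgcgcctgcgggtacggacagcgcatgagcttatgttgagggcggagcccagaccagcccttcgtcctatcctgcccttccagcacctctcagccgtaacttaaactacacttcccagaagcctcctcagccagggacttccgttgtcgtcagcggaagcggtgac
PSMD8: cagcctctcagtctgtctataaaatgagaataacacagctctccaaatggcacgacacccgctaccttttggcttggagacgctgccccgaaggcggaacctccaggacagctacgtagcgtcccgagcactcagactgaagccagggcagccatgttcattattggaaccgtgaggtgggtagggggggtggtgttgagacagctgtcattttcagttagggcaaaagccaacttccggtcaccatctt
Their GC contents were 64.8% for PSMC4 and 54.0% for PSMD8.

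NFE2L1 and NFE2L2, transcription factors known to drive proteasome genes, bind antioxidant response elements together with small MAF proteins, and the core of that element was therefore searched for around the start sites. The motif TGACNNNGC was sought on both strands in windows from 250 bases before to 50 bases after each RefSeq start. Of the 50 members, 44 had such a window, and 15 of these (34.1%) held the motif in at least 1 of their windows, against 16.1% of all 27305 genes with a window and 20.5% of the 4042 nuclear protein-coding genes tested that had one. Among the tested members it was found in 3 of 7 (42.9%) that were called lower and in 9 of 26 (34.6%) that were not. It was found in 2 of 9 genes of the core particle, 5 of 16 of the regulatory particle and 3 of 4 activators. PSMA7, PSMB1, PSMB6, PSMB7, PSMG3 and PSMD4 had no window. The matches in the 3 genes called lower, and those in PSME1, PSMA4 and PSMB3 for comparison, are shown with 10 bases on either side, 5′ to 3′ on the strand of the gene. Capitals mark the motif, which reads GCNNNGTCA where it lies on the opposite strand.
PSMC4, chr19:39971182-39971210, plus strand: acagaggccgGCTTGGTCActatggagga
PSME2, chr14:24146767-24146795, minus strand: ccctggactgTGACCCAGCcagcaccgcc
PSME4, chr2:53971009-53971037, minus strand: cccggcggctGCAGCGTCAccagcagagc
PSME1, chr14:24136098-24136126, plus strand: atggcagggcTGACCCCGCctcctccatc
PSMA4, chr15:78540650-78540678, plus strand: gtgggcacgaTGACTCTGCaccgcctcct
PSMB3, chr17:38752627-38752655, plus strand: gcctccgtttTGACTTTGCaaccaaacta
The match in PSMC4 began 28 bases after the start, so it lies outside the stretch printed above. Those of the other genes shown lay before the start. PSME1, PSMA4 and PSMB3 had log2 fold changes of -0.37, -0.32 and -0.39. The other tested members with a match, not shown, were PSMC5 (-0.45), PSMD12 (-0.01), PSMD3 (-0.03), PSMD1 (0.32), PSMG1 (0.05) and PSMG2 (0.08). The window of PSMD8 held no match. A match is a description of the letters and not of binding, and binding was not measured in these libraries.

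In the alpha ring, which forms the gate of the core particle, 3 of the 6 tested genes were called lower and all 6 had a log2 fold change below 0, with a median of -0.35. Summed over the ring, the level was 159 ± 8.91 CPM in siCTRL and 122 ± 10.5 CPM in siAPEX1 (SD, n = 4). PSMA5 (ENSG00000143106, chromosome 1 from 109399042 to 109426448, minus strand) had 13.1, 17.4, 14.8 and 18.3 CPM in siCTRL and 11.5, 8.93, 8.65 and 7.15 CPM in siAPEX1. Its groups did not overlap, and it fell by 0.81 on the log2 scale (SE 0.234, adjusted p = 0.0068). PSMA5 kept its call under every alternative in which it was tested, although with DESeq2 its adjusted p was 0.0496, the highest over the alternatives, from a lowest of 7.77e-05.

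PSMA1 (ENSG00000129084, chromosome 11 from 14504874 to 14643635, minus strand) had 16.6, 20.3, 12.5 and 19.9 CPM in siCTRL and 8.23, 4.87, 15.9 and 11.9 CPM in siAPEX1. The siAPEX1 library of replicate 3 lay within the siCTRL range, so the groups overlapped. The log2 fold change of PSMA1 was -0.72 (SE 0.249, adjusted p = 0.0223). Without the siAPEX1 library of replicate 2 it was -0.48 with an adjusted p of 0.154, and over the alternatives the adjusted p ran from 0.000321 to 0.154. Another gene on the same strand, ENSG00000256206, covers 26.7% of the exon bases of PSMA1, so its reads are uncertain.

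PSMA7 (ENSG00000101182, chromosome 20 from 62136733 to 62143440, minus strand) was the most abundant member per length of transcript, at 52.2 CPM per kilobase in siCTRL and 40.7 in siAPEX1. It had 56.3, 47.0, 53.3 and 44.3 CPM in siCTRL and 41.2, 42.2, 28.1 and 45.3 CPM in siAPEX1. The highest siAPEX1 library stood just above the lowest siCTRL library. The log2 fold change of PSMA7 was -0.37 (SE 0.138, adjusted p = 0.0364), and without the siAPEX1 library of replicate 3 it was -0.20 (adjusted p = 0.328, the highest over its alternatives, the lowest being 4.34e-05). The alpha genes that did not pass, PSMA2, PSMA3 and PSMA4, had log2 fold changes of -0.25, -0.26 and -0.32. For PSMA2, other genes cover 17.2% of the exon bases on the same strand and 12.4% on the opposite strand.

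Of the 7 constitutive genes of the beta ring, 2 were called lower, 5 had a value below 0, and the median was -0.39. The summed level was 120 ± 11.2 CPM in siCTRL and 97.6 ± 6.51 CPM in siAPEX1 (SD, n = 4). PSMB7 (ENSG00000136930, chromosome 9 from 124353465 to 124415444, minus strand), which carries the trypsin-like activity, had 23.1, 21.8, 25.02 and 16.05 CPM in siCTRL and 14.8, 12.2, 12.3 and 15.1 CPM in siAPEX1. The groups did not overlap, with siCTRL replicate 4 close to the siAPEX1 range. PSMB7 fell by 0.67 on the log2 scale (SE 0.200, adjusted p = 0.00798), a call that was lost only with DESeq2 (adjusted p = 0.0588, over alternatives from 4.74e-05).

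PSMB4 (ENSG00000159377, chromosome 1 from 151399560 to 151401937, plus strand) is a non-catalytic subunit. It had 30.7, 20.8, 34.3 and 32.7 CPM in siCTRL and 14.8, 24.3, 18.7 and 21.4 CPM in siAPEX1. The groups overlapped through siCTRL replicate 2, which lay below the siAPEX1 libraries of replicates 2 and 4. Its log2 fold change was -0.57 (SE 0.182, adjusted p = 0.0132), and the adjusted p over the alternatives reached 0.0883 without siAPEX1 replicate 1, from a lowest of 4.75e-05.

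Neither of the other catalytic subunits was called. PSMB6, of the caspase-like activity, had 20.6, 23.2, 16.2 and 12.7 CPM in siCTRL and 12.4, 17.0, 13.7 and 10.3 CPM in siAPEX1, with a log2 fold change of -0.45 (SE 0.219, adjusted p = 0.112). PSMB5, of the chymotrypsin-like activity and the main target of the drug bortezomib, had 18.1, 12.6, 8.81 and 11.6 CPM in siCTRL and 14.0, 14.6, 18.7 and 15.9 CPM in siAPEX1. The siCTRL library of replicate 1 lay above all siAPEX1 libraries but 1, and the other siCTRL libraries lay below all of them. The log2 fold change of PSMB5 was 0.32, the highest of the tested core genes (95% interval -0.12 to 0.76, adjusted p = 0.298), and it was -0.02 when libraries were scaled by size alone.

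The catalytic subunits thus made up different shares of their own counts in the groups, a comparison chosen after the values were seen and given without a test. PSMB5 took 29.3%, 21.9%, 17.6% and 28.8% of the counts on PSMB5, PSMB6 and PSMB7 in siCTRL and 34.0%, 33.3%, 41.9% and 38.5% in siAPEX1. All 4 siAPEX1 libraries stood above all 4 siCTRL libraries, and these shares do not depend on how libraries are scaled. PSMB7 took 41.2% ± 5.93 of the same counts in siCTRL and 31.9% ± 5.01 in siAPEX1 (SD, n = 4), also without overlap. PSMB6 took 34.4% ± 4.03 and 31.1% ± 5.75, and the groups overlapped. PSMB1, PSMB2 and PSMB3, the remaining beta genes, had log2 fold changes of 0.02, -0.24 and -0.39, and none was called.

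**Figure D2:**
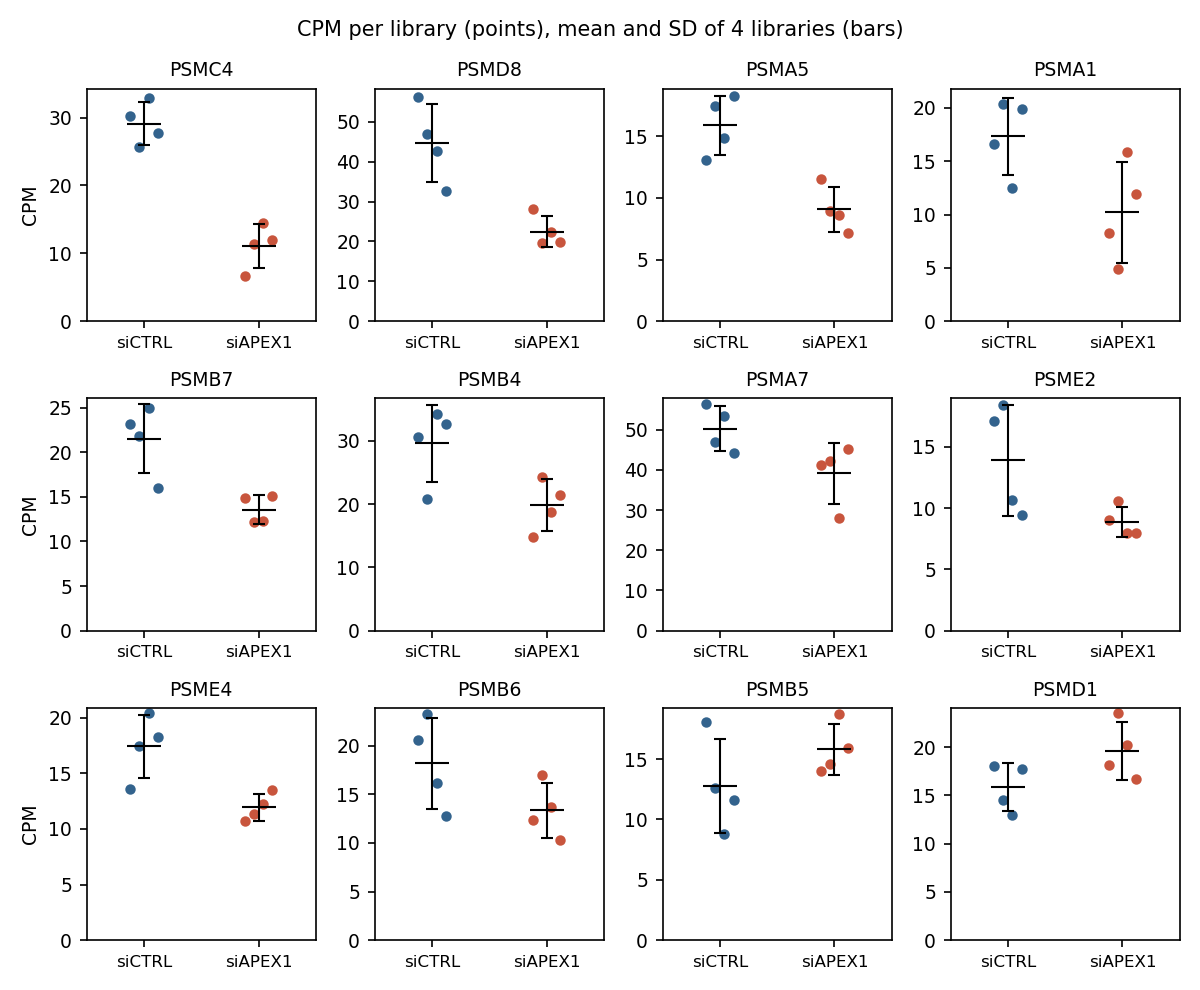
Level in CPM (y axis) of 12 proteasome genes in each of the 4 siCTRL and 4 siAPEX1 libraries (points), with the mean and the SD. PSMC4 and PSMD8 show groups that do not overlap, PSMA7, PSMB4 and PSME2 show called differences with overlapping groups, and PSMB5 and PSMD1 have the higher mean in siAPEX1.

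The inducible beta subunits, which replace the catalytic ones in the immunoproteasome, had too few counts to be tested. PSMB8 had 9, 7, 7 and 8 counts in siCTRL and 1, 2, 2 and 2 in siAPEX1. Each siAPEX1 library had fewer than any siCTRL library, also in CPM. Such a separation in CPM was found in 14.9% of all genes tested, and its share among genes too low to be tested was not computed. The ratio of the summed PSMB8 counts, scaled by the library sizes and TMM factors, was 0.356 (exact 95% interval 0.132 to 0.823, counting error only). PSMB9 had 2, 4, 7 and 1 counts in siCTRL and 7, 2, 2 and 2 in siAPEX1, a ratio of 1.46 (0.633 to 3.35). PSMB10 had 2 counts in all siCTRL libraries together and 1 in the siAPEX1 libraries. On the alpha side, PSMA6 had 7 and 9 summed counts and was not tested either. Genes on the same strand cover 14.1% of the exon bases of PSMA6 and 39.4% of those of PSMB10, so these low counts are uncertain. For PSMB8, genes on the opposite strand (PSMB8-AS1 and PSMB9) cover 17.3% of the exon bases, and the strand setting of the counting is not given. PSMA8, of the testis proteasome, and PSMB11, of the thymus proteasome, had 0 counts in every library, a value that allows up to 3 counts per library.

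Of the 6 ATPase genes of the base, 1 was called lower, the PSMC4 gene described above, 4 had a value below 0, and the median was -0.27. The others ran from -0.52 in PSMC1 (adjusted p = 0.104) over -0.45 in PSMC5 and -0.09 in PSMC2 to 0.05 in PSMC3 and 0.08 in PSMC6. For PSMC1, 76.1% of the exon bases are overlapped by NRDE2 on the opposite strand, and for PSMC5 15.3% by FTSJ3. Whether the counting used strand is not given in the sources used here. PSMC4 took 33.4% ± 3.05 of the counts on the 6 ATPase genes in siCTRL and 18.2% ± 3.95 in siAPEX1 (SD, n = 4), without overlap, a share also chosen after the values were seen. In the assembled ring each ATPase occurs once. The summed level of the ATPase genes was 87.3 ± 7.98 CPM in siCTRL and 60.1 ± 6.597 CPM in siAPEX1.

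None of the 3 non-ATPase genes of the base passed. PSMD1, the largest scaffold of the base, had 18.1, 14.5, 13.0 and 17.7 CPM in siCTRL and 18.1, 23.5, 20.2 and 16.7 CPM in siAPEX1. The groups overlapped, and the log2 fold change was 0.32, the highest of the tested regulatory genes (95% interval -0.06 to 0.70, adjusted p = 0.219), and -0.02 with scaling by size alone. The ubiquitin receptor PSMD4 had -0.22 and PSMD2, another scaffold of the base, had -0.39.

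In the lid, 1 of 8 genes, PSMD8, was called lower, and 6 had a value below 0 with a median of -0.03. The other lid genes lay close to 0. They ran from -0.13 in PSMD6 to 0.06 in PSMD14, which encodes the deubiquitinase of the lid. PSMD12 had -0.01 and PSMD7 had 0.02. For PSMD7, 31.2% of the exon bases are overlapped by ENSG00000259972 on the opposite strand. PSMD8 took 31.4% ± 4.58 of the counts on the lid genes in siCTRL and 19.02% ± 3.35 in siAPEX1 (SD, n = 4), again without overlap. The summed level of the lid was 141 ± 12.7 CPM in siCTRL and 118 ± 6.33 CPM in siAPEX1.

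Set side by side, 5 of 13 tested genes of the core particle were called lower, and their log2 fold changes had a median of -0.37 and a range from -0.81 to 0.32. In the regulatory particle 2 of 17 were called, with a median of -0.09 and a range from -1.38 to 0.32. Both particles had 2 tested genes whose siAPEX1 libraries all lay below the siCTRL libraries. Among all genes tested, 15.8% were called lower, and in 14.9% the siAPEX1 libraries all lay below. The medians stand on different numbers of genes and were not tested against each other.

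The tested core genes had 488 to 605 counts per siCTRL library and 259 to 296 per siAPEX1 library, and the tested regulatory genes had 488 to 620 and 268 to 322. The log2 ratio of core to regulatory counts was 0.04, 0.07, -0.10 and 0.00 in siCTRL and -0.05, -0.09, -0.20 and 0.12 in siAPEX1. The groups overlapped, and the means, 0.0019 ± 0.0723 and -0.05 ± 0.134 (SD, n = 4), differed by -0.06, less than the spread between libraries. With equal weight for each gene the difference was -0.11.

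PSMC4 and PSMD8 together held 26.4% ± 2.98 (SD, n = 4) of the counts on regulatory particle genes in siCTRL and 14.9% ± 1.19 in siAPEX1. Without these genes, a choice made after the data were seen, the ratio was 0.54, 0.53, 0.34 and 0.36 in siCTRL and 0.20, 0.12, 0.05 and 0.35 in siAPEX1. The siAPEX1 library of replicate 4 stayed within the siCTRL range, and the difference of the means was -0.27. PSMC4 and PSMD8 had the largest falls and no core gene was left out, so a move to a lower difference was fixed in advance. As shares of the nuclear protein-coding counts, the tested genes of the core particle had 0.199% ± 0.0108 in siCTRL and 0.155% ± 0.0109 in siAPEX1, and those of the regulatory particle had 0.199% ± 0.0101 and 0.161% ± 0.0054. Neither share overlapped between the groups.

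**Figure D3:**
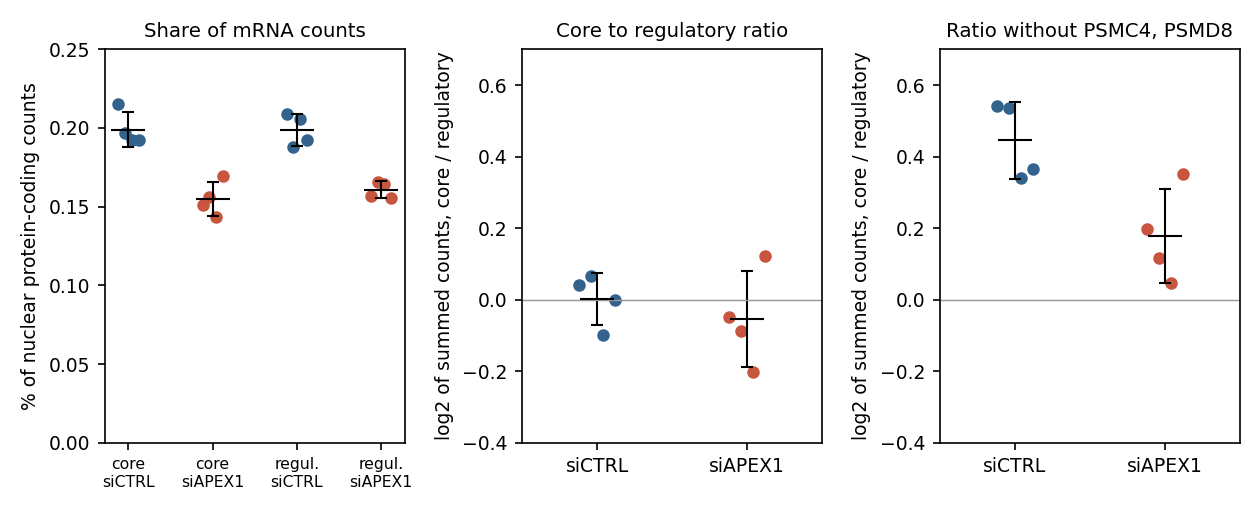
Tested genes of the core and the regulatory particle in each of the 8 libraries. The left panel gives the share of nuclear protein-coding counts (percent), lower in siAPEX1 for both particles. The middle panel gives the log2 ratio of core to regulatory counts, where the groups overlap. The right panel gives the same ratio without PSMC4 and PSMD8, where the means lie further apart. Replicate 4 of siAPEX1 remains within the siCTRL range there. PSMC4 and PSMD8 were picked for their large falls, which fixes the direction of that move in advance.

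The activators open the gate of the core without the ATPases, and all 4 of them had a log2 fold change below 0, with a median of -0.46. Their summed level was 75.03 ± 6.85 CPM in siCTRL and 55.9 ± 3.41 CPM in siAPEX1 (SD, n = 4). PSME4 (PA200, ENSG00000068878, chromosome 2 from 53864069 to 53970993, minus strand) had 13.6, 17.4, 20.4 and 18.3 CPM in siCTRL and 10.7, 11.4, 12.3 and 13.5 CPM in siAPEX1. The groups were adjacent without overlap, and the log2 fold change was -0.54 (SE 0.213, adjusted p = 0.048).

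PSME2 (PA28 beta, ENSG00000100911, chromosome 14 from 24143362 to 24147570, minus strand) had 17.1, 18.4, 10.7 and 9.41 CPM in siCTRL and 9.06, 10.6, 7.93 and 7.94 CPM in siAPEX1. The siCTRL libraries fell into a higher and a lower pair, the lower of which met the siAPEX1 range, and the log2 fold change was -0.66 (SE 0.259, adjusted p = 0.0486). Both calls are near the threshold. The adjusted p over the alternatives ran from 0.00069 to 0.183 for PSME4, which lost its call in 11 of 16, and from 0.00127 to 0.189 for PSME2, which lost it in 9 of 16.

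PSME1 (PA28 alpha, ENSG00000092010, chromosome 14 from 24136163 to 24138967, plus strand), which forms a ring with PSME2, had 37.7, 27.1, 28.3 and 29.3 CPM in siCTRL and 23.1, 25.2, 23.8 and 22.2 CPM in siAPEX1. Every siAPEX1 library lay below every siCTRL library, yet its log2 fold change of -0.37 did not pass (SE 0.161, adjusted p = 0.0724). PSME3 had -0.18. PSMF1, the inhibitor, had -0.42 (adjusted p = 0.122).

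The assembly chaperones were mostly too low to be tested. PSMG1 and PSMG2, which pair to place the alpha subunits, had log2 fold changes of 0.05 and 0.08. PSMG3 had 45 summed counts in siCTRL and 30 in siAPEX1, and PSMG4 had 17 and 12. Of the chaperones of the base, PSMD10 (gankyrin) had 9, 14, 10 and 7 counts in siCTRL and 4, 4, 0 and 2 in siAPEX1. Every siAPEX1 library lay below every siCTRL library in CPM, as in 14.9% of all genes tested. The scaled ratio of PSMD10 was 0.394 (exact 95% interval 0.176 to 0.801, counting error only). PSMD5 had 33 and 19 summed counts with a ratio of 0.907 (0.487 to 1.64), and PSMD9 had 13 and 8. Of the genes that meet the rule by name alone, PSME3IP1 had 0.14 and PSMC3IP had 3 counts in each group.

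Per kilobase of the canonical transcript, PSMA7, PSMB4, PSME1 and PSMD8 were the most abundant members in the mean of both groups. PSMB4 had 32.3 CPM per kilobase in siCTRL and 21.6 in siAPEX1, PSME1 had 31.7 and 24.4, and PSMD8 had 29.4 and 14.8. At the other end of the tested genes, PSMB2 had 2.97 and 2.52, PSMF1 2.40 and 1.79, and PSME4 2.40 and 1.65. Subunits that occur in equal number in the assembled particle, such as PSMA7 and PSMA5 with 52.2 and 4.17 CPM per kilobase in siCTRL, thus differed in level by over 10 times in these libraries. Before division by length, PSMA7 and PSMA5 had 50.2 and 15.9 CPM in siCTRL. Their canonical transcripts have 962 and 3815 bases, so part of the gap comes from the length used. Which transcripts the cells made was not tested. The kit was made for small RNA, so these levels need not follow the levels of whole transcripts.

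**Figure D4:**
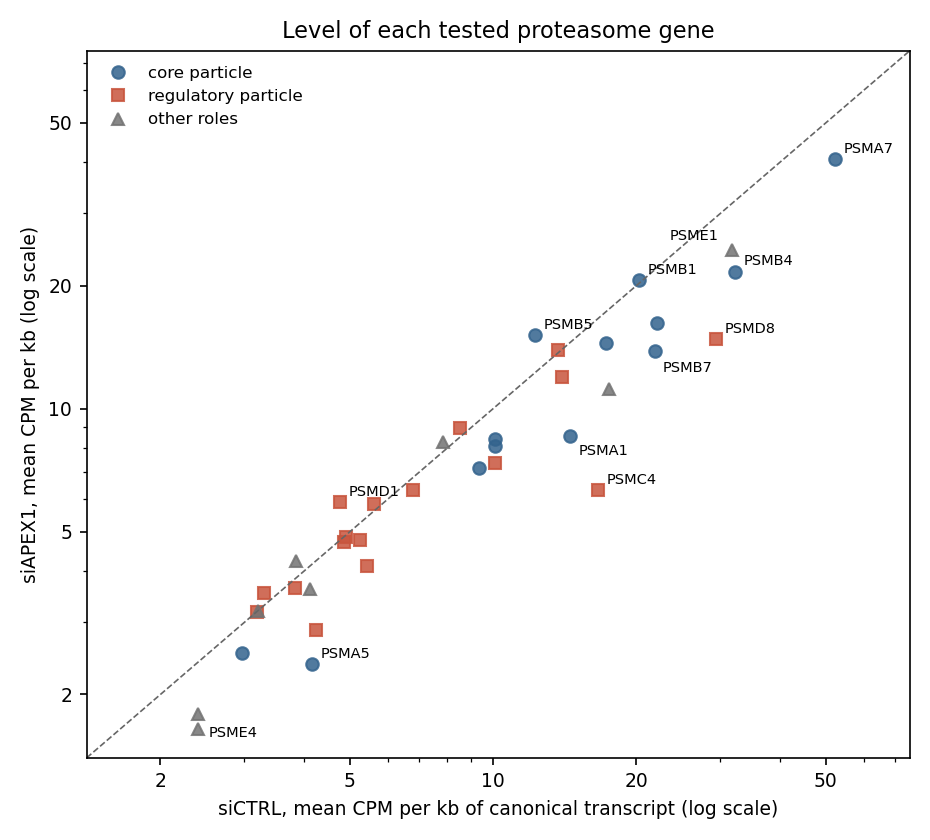
Mean level per kilobase of canonical transcript in siCTRL (x axis) and siAPEX1 (y axis) of the 38 tested genes, in CPM per kilobase on log axes, with the line of equal level. PSMC4 and PSMD8 lie furthest below the line, and PSMA7 has the highest level in both groups.

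Across the 38 tested genes, Spearman's correlation of the log2 fold change with the GC content of the canonical transcript was -0.246, and over the 4857 nuclear protein-coding genes tested it was -0.232. With transcript length it was 0.125 over the members and 0.15 over those genes, and with mean CPM it was -0.342 and 0.0656. Genes share the same libraries and are not independent replicates, so these values are descriptions.

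Genes that work with the proteasome were read from a list of 33, of which 27 were tested. Of these, 3 were called lower and 2 higher, against 15.8% and 15.9% of all genes tested. Their median was -0.04 on the log2 scale. Of 8 tested partners that bind or help assemble the particle edgeR called 0, while 2 had an unadjusted p under 0.05. SEM1, the smallest lid subunit, which the naming rule does not reach, had 0.37 (adjusted p = 0.0591), the deubiquitinase UCHL5 had 0.63 (adjusted p = 0.0701), the assembly factor POMP had 0.04 and the ubiquitin receptor ADRM1 had 0.03. The 4 tested shuttle factors, which carry ubiquitinated proteins to the particle, were not called, with a median of -0.18.

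VCP, the ATPase that extracts ubiquitinated proteins from complexes and membranes, had 94 to 120 counts in siCTRL and 40 to 56 in siAPEX1. It fell from 53.1 ± 5.14 to 36.2 ± 3.35 CPM (SD, n = 4), a log2 fold change of -0.55 (SE 0.131, adjusted p = 0.00112). UBB, a polyubiquitin gene, fell from 132 ± 15.2 to 100.2 ± 7.94 CPM, a log2 fold change of -0.40 (SE 0.104, adjusted p = 0.00264).

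Of the 5 tested genes in the list of transcription factors and helpers that act on proteasome genes, 1 was called lower and 2 were called higher. NFE2L1, which restores proteasome genes after proteasome inhibition, had 29, 29, 28 and 30 counts in siCTRL and 11, 11, 12 and 12 in siAPEX1. Its level was 14.6 ± 1.52 CPM in siCTRL and 9.04 ± 0.368 CPM in siAPEX1, a log2 fold change of -0.68 (SE 0.232, adjusted p = 0.0221), and with DESeq2 the adjusted p was 0.116, the highest over its alternatives, the lowest being 0.000368. NFE2L2, the regulator of the antioxidant response, had 36, 54, 49 and 38 counts in siCTRL and 53, 53, 55 and 50 in siAPEX1. It rose from 22.0 ± 3.36 to 41.5 ± 2.12 CPM, a log2 fold change of 0.91 (SE 0.149, adjusted p = 5.02e-06).

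MAFK, a small MAF protein that pairs with both, rose from 17.2 ± 1.55 to 28.0 ± 3.21 CPM, a log2 fold change of 0.70 (SE 0.170, adjusted p = 0.00124), and with scaling by size alone it had 0.36 (adjusted p = 0.0898, over alternatives from 0.000638). Its paralogue MAFG, at -0.0065 on the log2 scale, was not called (adjusted p = 0.986), and MAFF was not tested. The CPM of NFE2L1, NFE2L2 and MAFK did not overlap between the groups. No activity of these factors was measured.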

How the data were processed

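Per the labels and the methods of the study, total RNA of A549 cells was made into libraries with the SMARTer smRNA-Seq kit and sequenced as single 100-base reads. Alignment to GRCh38 was done by the authors with STAR 2.5.3a, and they deposited raw counts per gene, without normalization. The submitters' processing notes also name CASAVA and DESeq2. The annotation release and the strand setting are not given in the sources used here. Gene class, position and length came from GENCODE 44, which holds 57532 of the 58302 genes, and promoter windows from RefSeq (GRCh38.p14).

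The 5368 genes that passed filterByExpr (minimum count 10, minimum total 15) were tested with edgeR 4.0.16 in R 4.3.3 (TMM factors, quasi-likelihood test, Benjamini-Hochberg over all genes). The standard error is the log2 fold change divided by the square root of F, and CPM uses the TMM factors. The common biological coefficient of variation was 0.0832. The 8 libraries differed from each other beyond sampling noise. Counting intervals cover counting error only, since reads without molecular identifiers are not independent molecules. All members are accounted for by role. Those given in every library are the called members, the 4 most abundant per kilobase, the catalytic subunits with their inducible counterparts, and the lowest and highest member of each particle. PSME1 meets this through its abundance. PSMD10 was added after its values were seen. The members and lists were chosen with earlier results of these data known. Pseudogenes named after members (44 rows) held 119 counts in all, against 8497 on the members. Programs were tested on simulated data. Alternatives were other scalings, DESeq2 1.42.0, other filters, a replicate block and each library left out.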

Additional observations from a re-analysis of the deposited data

Results flagged for a closer look

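Over 38 sets of 4 libraries examined (the levels of the named genes, the summed quantities and the share of counts on nuclear protein-coding genes), 1 library stood far from the others of its group. In the siAPEX1 library of replicate 1, nuclear protein-coding genes took 12.7% of the counts, against 12.01% to 12.1% in the other siAPEX1 libraries. The gap to its nearest neighbour was 0.864 of the range of the group, above Dixon's critical value at 95% for 4 libraries. Chance alone gives such a gap in about 1 of 20 groups, so 1 among 38 groups is not unusual. Without this library 4 proteasome genes were called in place of 9, and 6 to 9 were called without any other library.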

How the results depend on the processing

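No alternative called a proteasome gene higher, while the number called lower varied. At an adjusted p of at most 0.05, 9 genes were called, against 20 with scaling by size alone, which shifts the median of all genes to -0.344, 3 with DESeq2, and 4 to 9 with a library left out (4 without siAPEX1 replicate 1). With a log2 fold change of at least 1 as well, 1 gene was called, 2 with upper-quartile factors, 5 with scaling by size alone, 3 over all genes with at least 1 count, 3 at a threshold of 0.75, and 1 to 2 with a library left out. Scaling by size alone moved the median of the core particle from -0.37 to -0.71 and that of the regulatory particle from -0.09 to -0.43, and turned PSMB5 to -0.0219 and PSMD1 to -0.0226. The core to regulatory difference moved from -0.06 to -0.27 without PSMC4 and PSMD8, which carry the counts shown in the report. The direction of this move follows from the choice of those genes by their falls. With a library left out, the core to regulatory difference was -0.11 to -0.0071. The causes of the other moves were not tested. PSMC4, PSMD8 and PSMA5 were called under each alternative in which they were tested, PSMB7 under all but DESeq2. Replicate numbers did not pair the libraries, since same-numbered libraries correlated at -0.037 to -0.003. With the number as a replicate block 7 genes were called, 1 of them with a log2 fold change of at least 1, and the medians were -0.37 and -0.09. Depth limits the 12 members that were not tested and the genes near 10 CPM, whose counts per library are few.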
